A study of Mus musculus with 12 samples.

Results

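The genes described are 33 complement factors, regulators and receptors, followed in mouse liver over the first hours after injection of concanavalin A (ConA), a plant lectin that activates T cells and causes immune-mediated liver injury. The 33 genes were taken from a list, and every probe set whose platform symbol, current or former, was one of them was collected. Of these genes, 30 were measured, through 50 probe sets (groups of short probes for one transcript), among 18193 genes in all. A gene with more than 1 probe set, as 11 of the 30 had, was represented by the one with the highest mean signal over the arrays. C3 and Cfd were not analysed here, because no probe set was paired with their symbols. C4b was reached only by a probe set annotated to both C4a and C4b, so it was counted for neither gene. The gene listed as C1s is now called C1s1.

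Complement is a set of plasma proteins, most of them made by hepatocytes, that tag and lyse targets and call in leukocytes. The classical pathway starts with C1q and its proteases, the lectin pathway with mannose-binding lectins or ficolins and the MASP proteases, and both cleave C2 and C4 to build the enzyme that splits C3, while factor B serves the same step in the alternative pathway. The terminal proteins then form a pore, regulators brake each step, and receptors on leukocytes bind the cleavage products.

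RNA came from whole liver of male Balb/c mice aged 8 to 10 weeks and was hybridised to 12 Affymetrix arrays, 3 for each of 4 groups. Mice received ConA at 20 mg/kg through the tail vein and were sampled 1 h, 3 h or 6 h later, and the control group stands for 0 h. The labels call the 0 h mice untreated, whereas the study's methods describe an injection of PBS. All controls belong to 0 h, so an effect of ConA and one of the time of day cannot be told apart. The labels number the arrays of a group as replicates and describe liver taken from each mouse. Alb, Ttr and Apoa1, which define hepatocytes, did not pass the test at any time, and of the 12 measured hepatocyte markers 0 rose and 2 fell by 3 h, while 1 rose and 1 fell by 6 h. Their summed signal was 90731 to 97514 at 0 h, 91659 to 98399 after 1 h, 85466 to 90601 after 3 h, below the whole 0 h range, and 91419 to 97007 after 6 h. The median signal of an array lay between 13.7 and 20.4. It was 15.6 to 18.4 at 0 h and 13.7 to 14.8 at 3 h, the lowest of the 4 groups. The part of this array scaling in the lower hepatocyte sum at 3 h was not tested. The number of arrays limits the precision.

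With the values as deposited, 8 complement genes rose by 6 h, 4 fell and the rest did not pass the test. More were called at 6 h than at 1 h, as among all genes, and the share that fell at 6 h was near that of all genes. Differences were tested with limma in 1 fit over the 12 arrays, on log2 signals and with Benjamini-Hochberg adjustment over all 18193 genes, and a gene was called at an adjusted p under 0.05. At 1 h no member passed, while 1.49% of all genes were called higher and 0.154% lower. At an unadjusted limma p under 0.05, 6 members were higher and 0 lower. The share of all genes at that looser threshold was not worked out, so these 2 counts have no background beside them. At 3 h, C1s1, Cfb and Itgb2 rose and C8g and C3ar1 fell, 3 and 2 of 30, against 5.17% of all genes called higher and 14.8% lower. At 6 h, 8 of 30 rose (C1ra, C1s1, C2, C4bp, Cfb, Mbl1, Itgam and Itgb2) and 4 fell (C8g, Masp1, C3ar1 and Cd59a), against 15.4% of all genes called higher and 12.7% lower. The 5 members called at 3 h were called at 6 h in the same direction.

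Fewer cells of a type and less RNA per cell cannot be told apart in such bulk samples. The median log2 change of the members was 0.11, -0.06 and 0.20 at the successive times, beside 0.08, -0.21 and 0.02 for all genes. By position alone, the 3 treated arrays lay all above the 3 control arrays for 5 members at 1 h (10.6% of all genes), 4 at 3 h (8.31%) and 11 at 6 h (22.1%). They lay all below the controls for 0 members at 1 h (3.37% of all genes), 5 at 3 h (28.8%) and 7 at 6 h (18.5%). The F test over the 3 contrasts with 0 h was passed by 14 of the 30 members and by 38% of all genes. Scaling the arrays differently moved the split of calls. With quantile normalization 4 members rose and 1 fell by 3 h, and 8 rose and 5 fell by 6 h. With all arrays set to the same median signal 6 rose and 1 fell by 3 h, and 7 rose and 7 fell by 6 h. The second scaling moved the median of all genes at 3 h from -0.21 to 0. Relative to that median, the log2 changes at 3 h were 0.63 for C1s1, 0.80 for Cfb, 1.27 for Itgb2, -0.86 for C3ar1 and -0.04 for C8g.

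**Figure D1:**
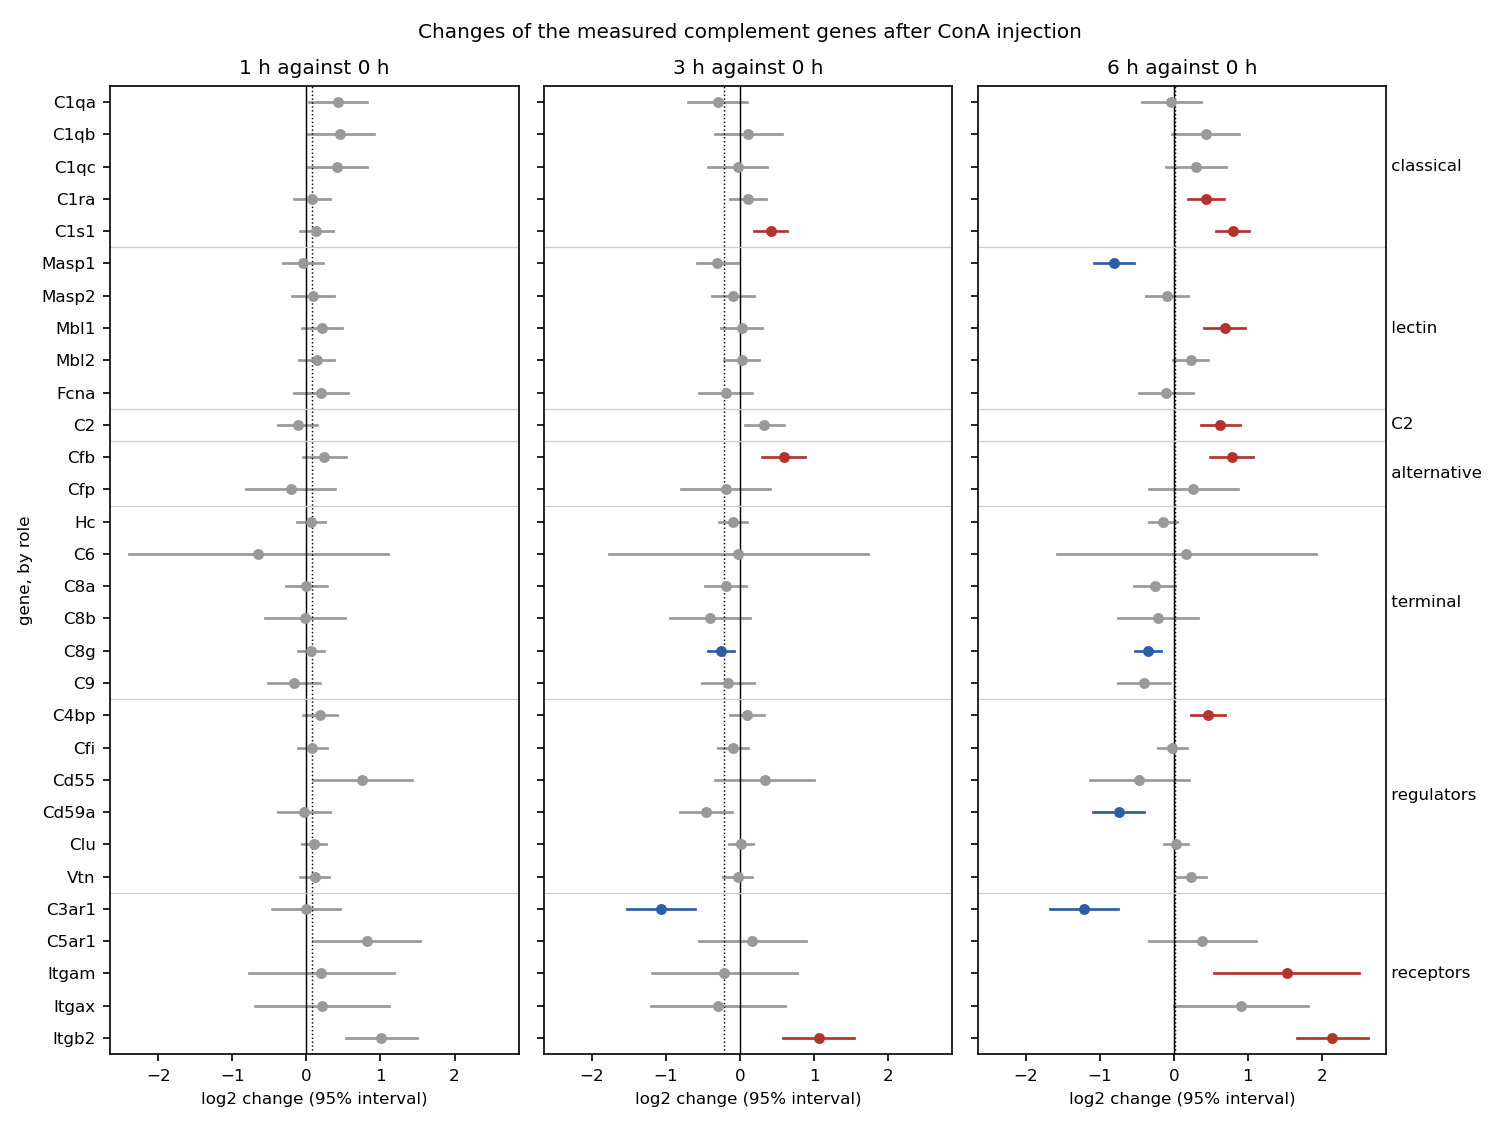
Log2 change of signal against 0 h, in 1 panel per time, for the 30 measured complement genes, grouped by role on the vertical axis, as points with 95% confidence intervals from the limma fit. Red marks genes called higher, blue genes called lower and grey genes that did not pass, and the dotted line is the median change of all genes; no gene is coloured at 1 h, 5 are at 3 h and 12 are at 6 h, with Itgb2 the farthest to the right at 2.14.

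The 8 members called higher at 6 h did not all rise at the same time. The bases before the annotated start of the members were searched for short motifs. RefSeq promoter windows on GRCm38.p6 were at hand for 23 of the 30 measured members and for 5 of the 8 that rose. The motif TTNNGNAA, of the type bound by C/EBP factors, was found on either strand within 250 bases before the start in 4 of these 5, in 0 of the 3 members that fell and had a window, and in 7 of 15 that did not pass. It is a loose motif, found in 36.8% of 32851 promoter windows and in 11 of the 23 members with a window. The first share is by window, whereas a member counted if any of its windows matched. TTCNNNGAA, of the STAT type (7.02% of windows), the IRF motif of a pair of GAAA stretches with 2 bases between them (2.98%), and the NF-kB motif (7.25%) had no match among the 5. A match describes letters, not a bound site. The 5 windows are shown to let the spacing of the matches be read, with bases that match TTNNGNAA on either strand in capitals, and none of those matches overlapped another of the motifs searched. Of C1s1 and C4bp, 217 and 211 bases are shown, since the bases nearest the start that lie inside the gene's outermost annotated limit were left out, and these held no match. C1ra lies on the + strand (chr6:124512371-124512620), C1s1 on the - strand (chr6:124542393-124542609), C4bp on the - strand (chr1:130661658-130661868), Itgam on the + strand (chr7:128062390-128062639) and Mbl1 on the + strand (chr14:41151206-41151455).
C1ra: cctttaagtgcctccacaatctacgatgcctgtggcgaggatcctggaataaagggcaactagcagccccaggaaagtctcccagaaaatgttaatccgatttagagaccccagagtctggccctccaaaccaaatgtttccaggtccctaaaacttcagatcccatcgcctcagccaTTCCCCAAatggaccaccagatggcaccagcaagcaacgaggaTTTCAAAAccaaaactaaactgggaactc
C1s1: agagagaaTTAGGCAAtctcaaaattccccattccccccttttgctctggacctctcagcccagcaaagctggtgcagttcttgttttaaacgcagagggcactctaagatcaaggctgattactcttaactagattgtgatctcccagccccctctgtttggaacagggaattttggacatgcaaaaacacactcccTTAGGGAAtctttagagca
C4bp: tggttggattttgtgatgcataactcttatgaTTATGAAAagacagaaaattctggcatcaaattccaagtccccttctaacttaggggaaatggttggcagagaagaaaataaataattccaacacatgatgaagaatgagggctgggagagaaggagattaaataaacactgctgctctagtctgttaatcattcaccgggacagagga
Itgam: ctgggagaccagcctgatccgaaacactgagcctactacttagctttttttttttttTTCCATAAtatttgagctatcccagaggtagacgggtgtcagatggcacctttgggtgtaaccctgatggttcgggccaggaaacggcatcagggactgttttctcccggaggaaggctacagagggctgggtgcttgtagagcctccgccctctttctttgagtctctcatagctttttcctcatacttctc
Mbl1: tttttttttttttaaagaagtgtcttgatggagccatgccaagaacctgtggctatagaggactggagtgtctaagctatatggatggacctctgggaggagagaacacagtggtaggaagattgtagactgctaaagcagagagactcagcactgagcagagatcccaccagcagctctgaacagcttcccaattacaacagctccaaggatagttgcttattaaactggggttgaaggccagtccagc
C1ra and C1s1 held 2 matches each, C4bp and Itgam 1 each, and Mbl1 none. C1ra and C1s1 neighbour each other in the genome, as do C2 and Cfb.

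The proteases of the classical pathway rose and the chains of its recognition protein did not pass. C1s1 encodes C1s, the protease of the C1 complex that cleaves C4 and C2. Its signals were 1442, 1420 and 1313 at 0 h, 1656, 1460 and 1471 after 1 h, 1989, 1884 and 1692 after 3 h and 2490, 2575 and 2205 after 6 h. All 9 treated arrays lay above all 3 control arrays, and the 6 h arrays above those at 3 h. The log2 change was 0.13 ± 0.10 (SE) at 1 h, 0.41 ± 0.10 at 3 h (limma adjusted p = 0.0181) and 0.80 ± 0.10 at 6 h, a 1.74-fold rise (limma adjusted p = 0.000329). The call at 3 h was lost without control replicate 3 (0.37, adjusted p = 0.0516), without 3 h replicate 1 (0.36, adjusted p = 0.0597) and without 3 h replicate 2 (0.40, adjusted p = 0.0519). The probe set is of the kind that the manufacturer marks as shared between transcripts, so signal of the close paralog C1s2 could not be told apart.

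C1ra encodes C1r, which activates C1s, and it has a close paralog, C1rb, not counted here. It read 1201, 995 and 1095 at 0 h, 1222, 1181 and 1053 after 1 h, 1139, 1309 and 1089 after 3 h and 1423, 1579 and 1434 after 6 h. The 6 h arrays stood above every other array, and the other groups overlapped. The log2 change at 6 h was 0.43 ± 0.11, 1.35-fold (limma adjusted p = 0.0146), against 0.07 ± 0.11 at 1 h and 0.10 ± 0.11 at 3 h. The call was lost without control replicate 2 (0.37, adjusted p = 0.0512), without 6 h replicate 2 (0.39, adjusted p = 0.0521) and with arrays set to the same median (0.30, adjusted p = 0.0746).

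C1qa, C1qb and C1qc encode the chains of C1q, which binds antibody and dying cells and is made mainly by macrophages. C1qa read 293 to 408 at 0 h, 449 to 545 at 1 h, 257 to 357 at 3 h and 302 to 379 at 6 h. C1qb read 177 to 288, 255 to 374, 227 to 261 and 268 to 356 at the same times. C1qc read 163 to 233, 234 to 316, 177 to 216 and 222 to 297. All 3 chains had their highest mean at 1 h, where the C1qa and C1qc arrays lay all above the controls, and no chain passed the test against 0 h. The log2 changes at 1 h were 0.43 ± 0.18 for C1qa, 0.46 ± 0.20 for C1qb and 0.42 ± 0.18 for C1qc, with limma adjusted p of 0.401, 0.437 and 0.422. At 6 h they were -0.04 ± 0.18, 0.43 ± 0.20 and 0.30 ± 0.18. The other, dimmer probe sets of C1qb stood at -0.20 and -0.08 at 6 h and did not pass. C1qa passed the F test over the time course (adjusted p = 0.0435).

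C2 and factor B, the proteases that the C3-cleaving enzymes carry, rose, while the probe set for C4 did not pass. C2 read 633, 616 and 662 at 0 h, 598, 640 and 529 after 1 h, 787, 882 and 737 after 3 h and 1013, 1091 and 861 after 6 h. The 3 h and 6 h arrays lay above every array of 0 h and 1 h. C2 differed from 0 h by a log2 change of -0.12 ± 0.12 at 1 h, 0.33 ± 0.12 at 3 h (limma adjusted p = 0.0789) and 0.63 ± 0.12 at 6 h, 1.55-fold (limma adjusted p = 0.00307). The probe set shown is of a kind that the manufacturer marks as open to cross-hybridisation, and the other probe sets of C2 also passed at 6 h, with log2 changes of 0.59 and 0.46. With quantile normalization C2 passed at 3 h as well (0.47, adjusted p = 0.0205).

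Cfb, which encodes factor B of the alternative pathway, read 1702, 1781 and 1914 at 0 h, 2408, 2198 and 1813 after 1 h, 3072, 2600 and 2473 after 3 h and 3045, 3354 and 2870 after 6 h. From 3 h all arrays lay above the controls, and at 1 h 2 of 3 did. Its log2 change was 0.24 ± 0.13 at 1 h, 0.59 ± 0.13 at 3 h (limma adjusted p = 0.0119) and 0.78 ± 0.13 at 6 h, 1.72-fold (limma adjusted p = 0.00166). Cfp, which encodes properdin, the stabiliser of the alternative pathway's enzyme, read 71.5 to 118 at 0 h and 87.9 to 115 at 6 h, and its groups overlapped (log2 0.26 ± 0.27 at 6 h). The probe set annotated to both C4a and C4b read 3689 to 4035 at 0 h and 4125 to 4579 at 6 h. Its log2 change was 0.05 ± 0.10 at 1 h, -0.04 ± 0.10 at 3 h and 0.13 ± 0.10 at 6 h (limma adjusted p = 0.418).

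Members of the lectin pathway moved in opposite directions. Mbl1, which encodes the mannose-binding lectin A of mice, read 1645, 1640 and 1776 at 0 h, 2166, 2106 and 1620 after 1 h, 1852, 1743 and 1545 after 3 h and 2768, 2741 and 2623 after 6 h. The 6 h arrays stood above all 9 others, and the 0 h and 3 h arrays overlapped. Against 0 h the log2 change was 0.02 ± 0.12 at 3 h and 0.69 ± 0.12 at 6 h, 1.61-fold (limma adjusted p = 0.00236). Mbl2, which encodes mannose-binding lectin C, read 4477 to 4831 at 0 h and 4942 to 5721 at 6 h. Its 6 h arrays were all above the controls, but the log2 change of 0.23 ± 0.11 did not pass (limma adjusted p = 0.148).

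Masp1 encodes proteases that bind mannose-binding lectin, among them one that also activates factor D. Its signals were 1298, 1233 and 1304 at 0 h, 1291, 1113 and 1335 after 1 h, 1097, 1116 and 903 after 3 h and 752, 806 and 648 after 6 h. The arrays at 3 h lay all below the controls and those at 6 h below all 9 others. Masp1 had a log2 change of -0.31 ± 0.12 at 3 h (limma adjusted p = 0.110) and -0.80 ± 0.12 at 6 h, 1.74-fold lower (limma adjusted p = 0.000961). Masp1 had 5 probe sets, and splice forms of the gene differ in their protease domain. Of the other 4 probe sets, 3 had a negative change at 6 h (-0.54, -0.70 and -0.38) and the dimmest a positive one (0.63), with no adjusted p under 0.05. With the mean of all 5 the change at 6 h was -0.36 (adjusted p = 0.0587), and at 3 h it was -0.43 and passed (limma adjusted p = 0.0373). At 3 h the other 4 probe sets stood at -0.65, -0.61, -0.74 and 0.14. Those at -0.65 and -0.74 passed (limma adjusted p = 0.0427 and 0.0254), so the time of the fall depended on the probe set. Masp2, the protease that cleaves C4 and C2 in this pathway, read 544 to 634 at 0 h and 511 to 630 at 6 h (log2 -0.10 ± 0.13). Fcna, which encodes ficolin A, a lectin of liver macrophages and plasma, read 223 to 320 at 0 h and 239 to 295 at 6 h (log2 -0.11 ± 0.16).

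**Figure D2:**
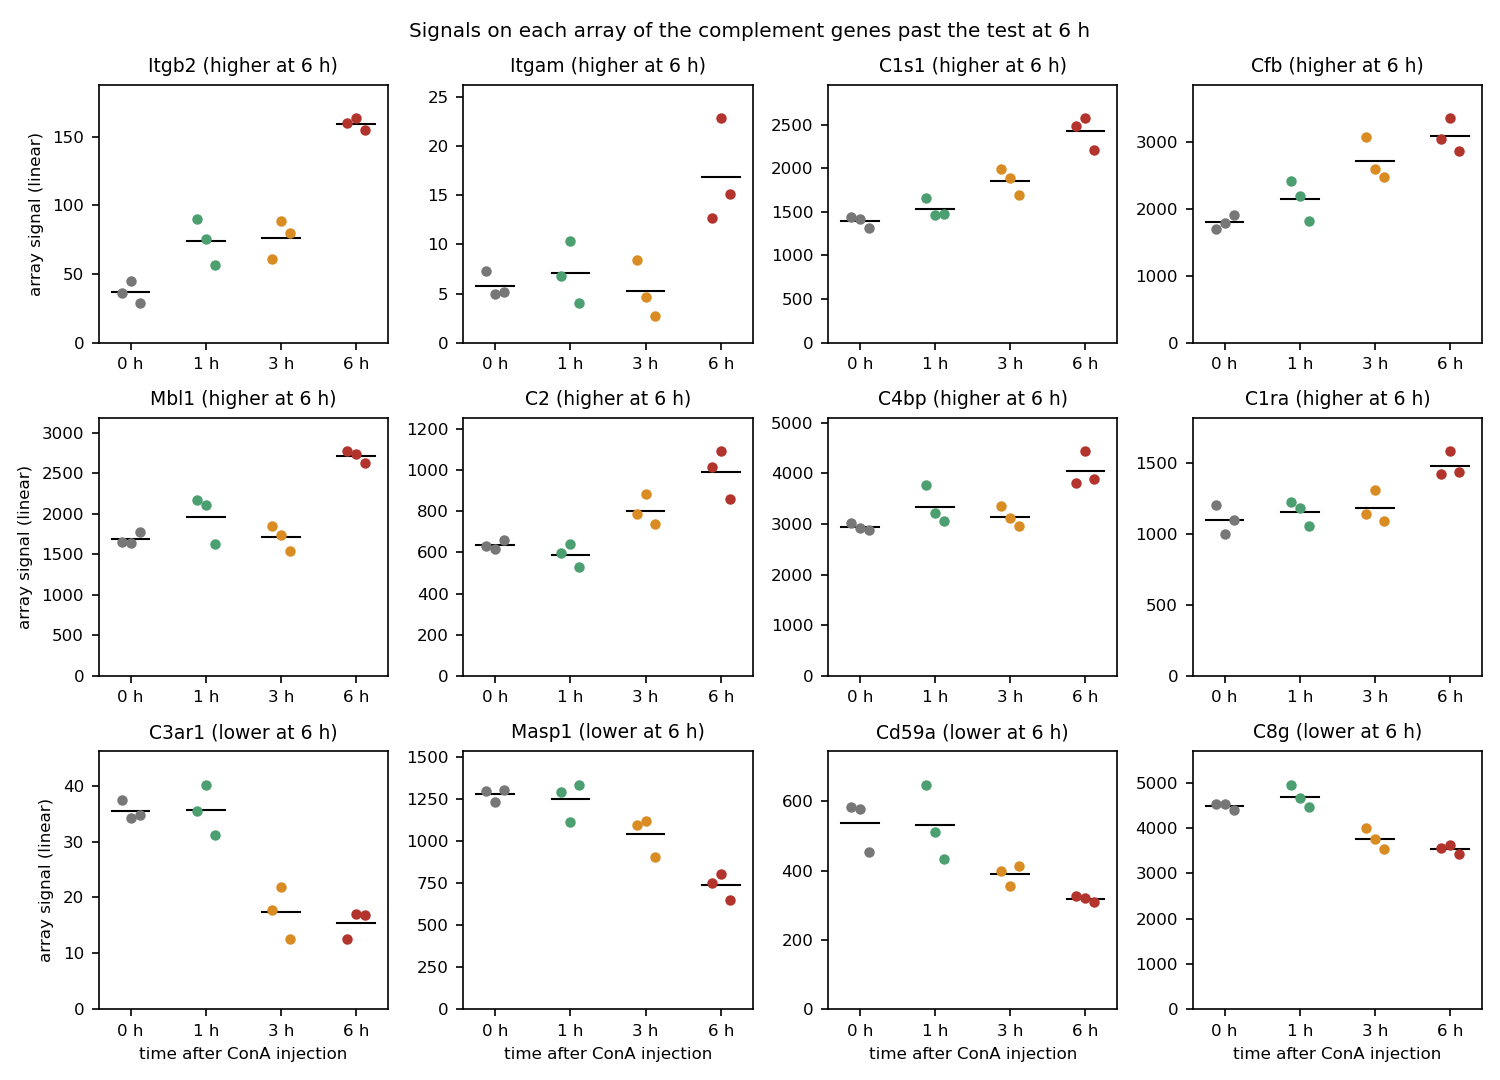
Linear array signal (vertical axis, each panel from 0 with its own scale) of the 12 complement genes past the test at 6 h, against time after ConA injection; points are single arrays, 3 per time, and bars are group means. The 8 genes that rose come first and the 4 that fell last, and in every panel the 6 h arrays are separate from the 0 h arrays. Mbl1 and Itgam at 3 h still overlap their 0 h values, whereas C1s1 and Cfb are already above theirs.

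Of the 6 measured terminal components 0 rose and 1 fell at 6 h, beside 15.4% and 12.7% of all genes. C8g encodes the gamma chain of C8, a lipocalin that takes part in the pore. It read 4542, 4538 and 4407 at 0 h, 4962, 4666 and 4468 after 1 h, 3993, 3766 and 3539 after 3 h and 3556, 3621 and 3426 after 6 h. The groups at 3 h and 6 h lay below all arrays of 0 h and 1 h. The log2 change was -0.26 ± 0.08 at 3 h (limma adjusted p = 0.0411) and -0.35 ± 0.08 at 6 h, 1.27-fold lower (limma adjusted p = 0.0072). The call at 3 h was lost when any of 9 arrays was left out, namely each control, 1 h replicate 2, 3 h replicates 2 and 3, and each 6 h array, with log2 changes between -0.27 and -0.21 and adjusted p from 0.0515 to 0.131. With arrays set to the same median it was -0.01.

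The other chains of C8 and C9, which polymerises to form the wall of the pore, lay lower at 6 h without passing. C8a read 3849 to 4313 at 0 h and 3252 to 3575 at 6 h, with all 6 h arrays below the controls (log2 -0.26 ± 0.12, limma adjusted p = 0.166). C9 read 4681 to 4960 at 0 h, 3567 to 5164 at 1 h, 3881 to 5077 at 3 h and 3241 to 3995 at 6 h. Its 6 h arrays were all below the controls, and the log2 change of -0.40 ± 0.16 had a limma adjusted p of 0.0884, which fell to 0.0404 with quantile normalization (-0.52). C8b read 1162 to 1900 at 0 h and 1185 to 1418 at 6 h (log2 -0.21 ± 0.24). Hc, which encodes C5, the source of the chemoattractant C5a, read 2815 to 2960 at 0 h and 2484 to 2794 at 6 h (log2 -0.14 ± 0.09, limma adjusted p = 0.269).

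C6, which joins C5b to begin the pore, differed more within groups than between them. It read 179, 152 and 429 at 0 h, 73.3, 104 and 399 after 1 h, 107, 620 and 167 after 3 h and 225, 223 and 330 after 6 h. At 0 h, 1 h and 3 h the highest array, at 429, 399 and 620, stood far above the other 2. The values at 6 h lay closer together, and the groups overlapped at all times. The SD within groups was 1.02 on the log2 scale, larger than that of 99.7% of the genes brighter than the median. The 95% interval of its change at 6 h, -1.58 to 1.92, was too wide to show a change of the size seen in C1s1 or Masp1. The SD of Clu on the same scale was 0.06.

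**Figure D3:**
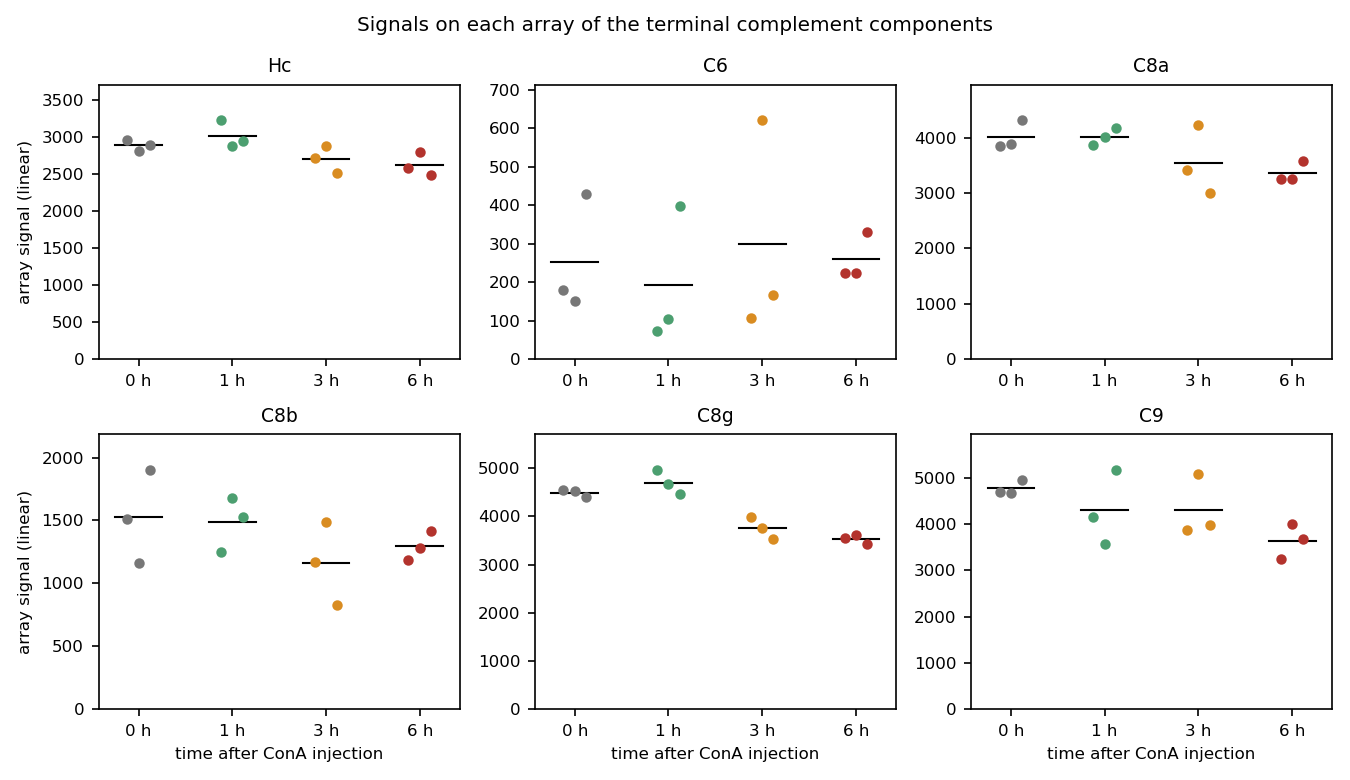
Linear array signal (vertical axis, each panel from 0 with its own scale) of the 6 measured terminal components against time after ConA injection; points are single arrays, 3 per time, and bars are group means. C8g falls at 3 h and 6 h with little spread, while C6 spans 73.3 to 620 with a single high array at 0 h, 1 h and 3 h.

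Among the regulators 1 of 6 rose and 1 fell at 6 h, beside 15.4% and 12.7% of all genes. C4bp encodes the plasma protein that helps to degrade C4b. It read 3010, 2922 and 2872 at 0 h, 3763, 3209 and 3055 after 1 h, 3353, 3111 and 2953 after 3 h and 3810, 4433 and 3894 after 6 h. The 1 h and 6 h arrays lay all above the controls, those at 6 h above all others. Relative to 0 h, C4bp had a log2 change of 0.18 ± 0.10 at 1 h, 0.10 ± 0.10 at 3 h and 0.46 ± 0.10 at 6 h, 1.38-fold (limma adjusted p = 0.00801).

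Cd59a encodes a membrane protein that blocks assembly of the pore on the cell's own surface. It read 584, 578 and 454 at 0 h, 649, 513 and 433 after 1 h, 398, 356 and 414 after 3 h and 328, 322 and 308 after 6 h. The arrays at 3 h and 6 h lay below all those of 0 h and 1 h. On the log2 scale Cd59a stood at -0.46 ± 0.16 at 3 h (limma adjusted p = 0.066) and -0.75 ± 0.16 at 6 h, 1.68-fold lower (limma adjusted p = 0.00574). At 3 h it passed without control replicate 3 (-0.58, adjusted p = 0.0378) and without 1 h replicate 1 (adjusted p = 0.0299) or 1 h replicate 3 (adjusted p = 0.0415). Its other probe set also passed at 6 h, at -0.95 (adjusted p = 0.0237).

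Cd55, which encodes decay-accelerating factor, a membrane protein that takes apart the C3-cleaving enzymes, read 28.2 to 45.9 at 0 h, 44.0 to 66.4 at 1 h, 34.4 to 48.5 at 3 h and 16.4 to 30.6 at 6 h. It passed the F test (adjusted p = 0.0399) but no single contrast with 0 h, with log2 changes of 0.76 ± 0.30 at 1 h, 0.33 ± 0.30 at 3 h and -0.47 ± 0.30 at 6 h (limma adjusted p = 0.366, 0.491 and 0.306). The remaining probe sets of Cd55 were nearly as bright (mean signal 36.0 and 35.7, against 40.4) and were not lower at 6 h. For the brighter of these, the log2 changes in order of time were 0.82, 0.03 and 0.08, none past the test. For the dimmer they were 1.42, 0.96 and 0.85 (limma adjusted p = 0.0553, 0.0623 and 0.0761). The direction at 6 h thus depended on the probe set. The plasma regulators Cfi, Clu and Vtn had no call through the probe sets that represented them. Cfi, the protease factor I, read 5012 to 5100 at 0 h and 4801 to 5297 at 6 h, and Clu, or clusterin, read 5244 to 5728 and 5322 to 5866. Vtn, or vitronectin, read 6355 to 6782 at 0 h and 7374 to 8028 at 6 h, with all 6 h arrays above the controls (log2 0.24 ± 0.09, limma adjusted p = 0.0724). It passed without 1 h replicate 1 (adjusted p = 0.0327). The other probe set of Vtn passed at 6 h (0.31, limma adjusted p = 0.0251), as did the mean of its probe sets (0.27, limma adjusted p = 0.0409).

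The largest changes of all members at 6 h were those of receptors on leukocytes. Itgb2 encodes CD18, the beta chain that complement receptors 3 and 4 share with the adhesion receptor LFA-1. It read 36.5, 44.7 and 29.1 at 0 h, 90.3, 75.4 and 56.9 after 1 h, 60.8, 88.3 and 80.1 after 3 h and 160, 163 and 155 after 6 h. All 9 treated arrays lay above the controls, and those at 6 h above all others. The log2 change was 1.01 ± 0.21 at 1 h (limma adjusted p = 0.0551), 1.06 ± 0.21 at 3 h, 2.08-fold (limma adjusted p = 0.00812), and 2.14 ± 0.21 at 6 h, 4.40-fold (limma adjusted p = 0.000101). At 1 h it passed without control replicate 2 (1.16, adjusted p = 0.0466), without 1 h replicate 3 (1.19, adjusted p = 0.0307) and with quantile normalization (0.90, adjusted p = 0.0322).

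Itgam encodes CD11b, the alpha chain of complement receptor 3. Its signals were low, 7.31, 4.91 and 5.19 at 0 h, 6.76, 10.3 and 4.09 after 1 h, 8.46, 4.68 and 2.69 after 3 h and 12.7, 22.9 and 15.1 after 6 h, with 1 array at 3 h under the floor of 3.04. The 6 h arrays stood above all others, and the rest overlapped. The log2 change at 6 h was 1.52 ± 0.43, 2.87-fold (limma adjusted p = 0.0267). It did not pass without control replicate 2 (1.41, adjusted p = 0.081), without control replicate 3 (1.45, adjusted p = 0.0746), without 6 h replicate 2 (1.28, adjusted p = 0.0929) or without 6 h replicate 3 (1.58, adjusted p = 0.059). Itgax, the alpha chain CD11c of complement receptor 4, read 10.9 to 19.7 at 0 h and 22.5 to 40.04 at 6 h. Its 6 h arrays were all above the controls, with a log2 change of 0.90 ± 0.40 that did not pass (limma adjusted p = 0.134).

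C3ar1 and C5ar1 encode the receptors for the anaphylatoxins C3a and C5a. C3ar1 read 37.5, 34.2 and 34.8 at 0 h, 35.5, 40.2 and 31.2 after 1 h, 17.7, 21.9 and 12.5 after 3 h and 12.6, 16.9 and 16.8 after 6 h. The arrays of 0 h and 1 h overlapped, and those of 3 h and 6 h lay below all of them. The log2 change was -1.07 ± 0.20 at 3 h, 2.10-fold lower (limma adjusted p = 0.00645), and -1.21 ± 0.20 at 6 h, 2.32-fold lower (limma adjusted p = 0.00184). The 2 dimmer probe sets of the gene did not pass, with 0.98 and -0.22 at 3 h and -0.96 and -1.39 at 6 h, and with the mean of its probe sets the change at 3 h was -0.10 (adjusted p = 0.854). C5ar1 read 7.39 to 16.6 at 0 h, 15.6 to 22.7 at 1 h, 8.21 to 16.2 at 3 h and 13.2 to 15.3 at 6 h. Its groups overlapped at all times through this probe set, with log2 changes of 0.82 ± 0.32 at 1 h and 0.38 ± 0.32 at 6 h (limma adjusted p = 0.370 and 0.444). The other, dimmer probe set of C5ar1, with 1 array at the floor, stood at 2.04, 0.02 and 1.46 in order of time. It did not pass against 0 h (limma adjusted p = 0.136 at 1 h and 0.0964 at 6 h). From 1 h to 3 h it fell by 2.02 and passed (limma adjusted p = 0.0376). The mean of the probe sets also passed that step (-1.33, limma adjusted p = 0.0457).

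Leukocyte markers moved over the same hours, and neutrophil markers already rose at 1 h. No receptor passed at that time, with Itgb2 at a log2 change of 1.01 (limma adjusted p = 0.0551). The part of leukocyte markers in the receptor results was not tested. Of 11 measured neutrophil markers 7 rose at 1 h, 9 at 3 h and 11 at 6 h, and their summed signal was 382 to 576 at 0 h, 2202 to 3667 at 1 h, 7680 to 8153 at 3 h and 10637 to 12380 at 6 h. S100a8, S100a9 and Cxcr2 rose at 6 h by 5.56, 5.04 and 2.58 on the log2 scale. Of 8 measured markers of monocytes and infiltrating macrophages 7 rose and 1 fell at 6 h. Those that rose included Ccr2 at 1.75, Fn1 at 0.50 and Plac8 at 1.81. The summed signal of the 8 was 4487 to 4990 at 0 h and 6936 to 7291 at 6 h. Most of that sum was Fn1, which read 4123 to 4635 at 0 h and 5882 to 6259 at 6 h, so the sum mainly followed this gene. Of 10 Kupffer cell markers, those of the resident macrophages of liver, 5 fell and 1 rose at 6 h, and their summed signal was 3226 to 4292 at 0 h, 3768 to 4401 at 1 h, 1824 to 2122 at 3 h and 1503 to 2027 at 6 h. Clec4f fell by 1.40, whereas Cd5l (-0.06) and Timd4 (0.80) did not pass. Of the other lists, 4 of 8 T cell markers rose at 6 h, 0 of 6 B cell markers passed, 2 of 10 sinusoidal endothelial markers rose and 5 fell, 0 of 10 stellate cell markers rose and 7 fell, and 0 of 8 adipocyte and 0 of 3 erythroid markers passed. The defining markers among them past the test were Cd3g of T cells, with a log2 change of 1.38 at 6 h, Lyve1 of sinusoidal endothelium (1.23), and Lrat (-3.43) and Reln (-0.48) of stellate cells. The defining markers that did not pass were Cd3d (1.33) and Cd3e (0.53) of T cells, Cd79a (1.06), Cd79b (0.87) and Ms4a1 (1.33) of B cells, Stab1 (-0.40) and Stab2 (0.02) of sinusoidal endothelium, Des (0.38) of stellate cells, Adipoq (-0.16), Fabp4 (0.79) and Cidec (1.63) of adipocytes, and Hba-a1 (-0.40), Alas2 (-0.69) and Slc4a1 (0.08) of erythroid cells.

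**Figure D4:**
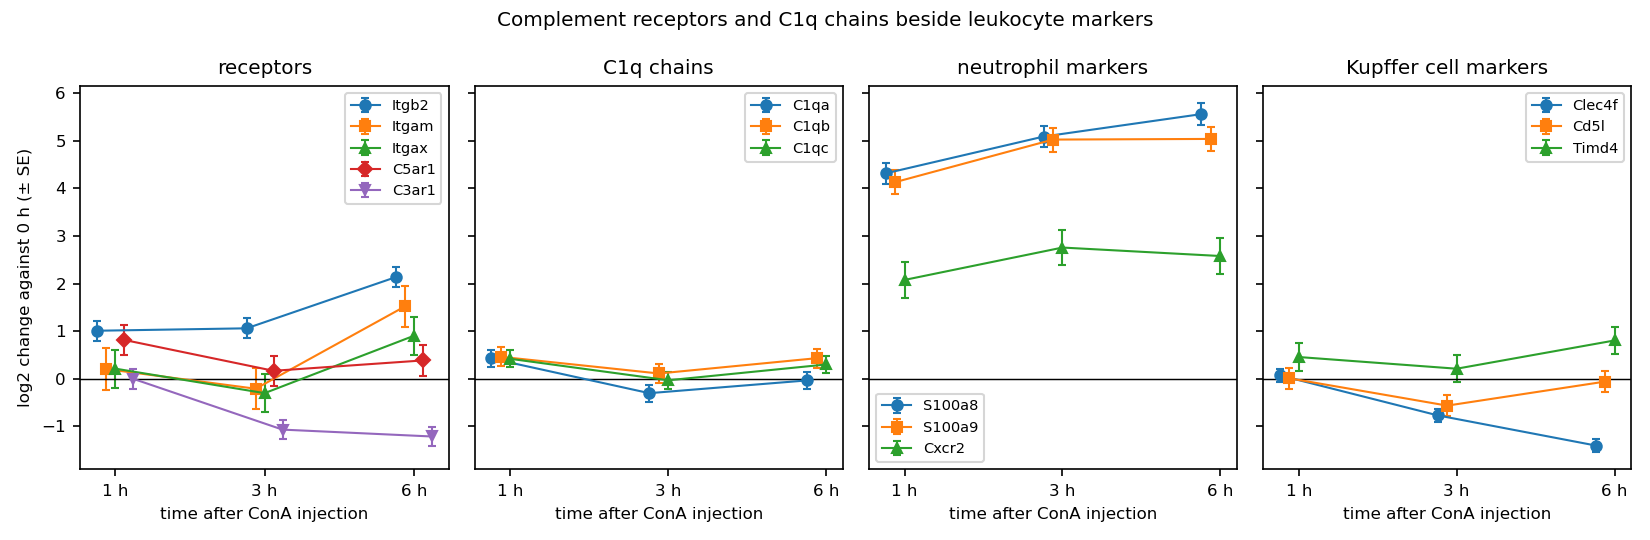
Log2 change of signal against 0 h (vertical axis, points with SE from the limma fit) over the 3 treated times for 5 complement receptor genes, 3 C1q chains, 3 neutrophil markers and 3 Kupffer cell markers. Itgb2 is above 0 at all times and reaches 2.14 at 6 h, C3ar1 falls to -1.21, the C1q chains stay between -0.30 and 0.46, the neutrophil markers all rise and Clec4f falls to -1.40.

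Further genes of the system outside the 33 were read from a second list, of which 23 of 33 were measured. At 1 h 1 rose and 0 fell, at 3 h 2 rose and 4 fell, and at 6 h 5 rose and 7 fell. Among all genes the share that rose was 1.49%, 5.17% and 15.4% at the successive times, and the share that fell 0.154%, 14.8% and 12.7%. These counts rested in part on single arrays: at 3 h 1 rose without control replicate 1 or without any of the 3 h arrays, 2 fell without control replicate 1 or 2, and at 6 h 3 rose without control replicate 1. Crp, which encodes C-reactive protein, a pentraxin that binds C1q, read 3079 to 3205 at 0 h and 7795 to 8540 at 6 h, and its log2 change was 0.90 ± 0.09 at 1 h, 1.25 ± 0.09 at 3 h and 1.37 ± 0.09 at 6 h (limma adjusted p = 1.06e-05 at 6 h). It was the single gene of both lists past the test at 1 h. Colec11, which encodes a collectin of the lectin pathway and is also a stellate cell marker, read 529 to 884 at 0 h and 121 to 161 at 6 h, and it fell by 1.23 at 3 h and by 2.35 at 6 h on the log2 scale (limma adjusted p = 5.05e-05 at 6 h). The summed signal of the 10 stellate cell markers, Colec11 included, was 3034 to 4096 at 0 h and 1967 to 2227 at 6 h, and its part in the fall was not tested. Colec10, its partner collectin, fell by 1.09 at 6 h (limma adjusted p = 0.00271).

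Vsig4, a complement receptor of Kupffer cells and one of their markers here, read 312 to 442 at 0 h and 98.4 to 145 at 6 h, a log2 change of -1.64 ± 0.18 (limma adjusted p = 0.000172). Klkb1, which encodes plasma prekallikrein, a protease that the C1 inhibitor controls, read 1044 to 1315 at 0 h and 313 to 389 at 6 h, a log2 change of -1.79 ± 0.11 (limma adjusted p = 6.96e-06). In all of these genes the 6 h arrays lay clear of the controls, and Colec10 and Colec11 fell along with Masp1 while Mbl1, also a collectin, rose.

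The steps from one time point to the next were compared as well. From 1 h to 3 h 1 member was higher (C2) and 3 lower (C1qa, C8g and C3ar1), against 3.09% of all genes higher and 19.9% lower. From 3 h to 6 h 5 were higher (C1s1, C4bp, Mbl1, Itgam and Itgb2) and 1 lower (Masp1), against 18.8% and 3.86% of all genes. These shares of the members were near or under those of all genes. These steps depended on the scaling, since the median of all genes moved by -0.31 and by 0.24. With quantile normalization 3 were higher and 0 lower in the first step and 4 higher and 4 lower in the second, and with arrays set to the same median 3 and 1, then 2 and 9.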

How the data were processed

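Total RNA of mouse liver was hybridised to Affymetrix arrays, 3 for each of 4 groups. The deposited table holds linear signal intensities, which the authors made with MAS5 version 5.0 per the labels, whereas the study's methods name RMA. The distributions of the intensities differed between arrays, which the quantile step of RMA removes, so the values were read as MAS5-like and used as deposited. Which software made them is not settled. A floor of 3.04, the 20th percentile of all values, was applied before taking log2, so changes of dim genes are understated. Of 45101 probe sets, 64 of the manufacturer's controls were left out. Of the remaining 45037, 34945 carried 1 gene symbol, 932 several and 9160 none, and 34741 symbols were updated by Entrez ID.

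Groups were compared with limma 3.58.1 in R 4.3.3, as described above, with moderated variances and no intensity trend. The F test over 3 contrasts took the place of the random variance model of the study's methods. The steps were tested on simulated data. Errors are the SE of the fit, and intervals are at 95%. The labels describe extraction from each mouse but do not tie an array to 1 mouse, so the p-values measure the spread between arrays. Members and lists were chosen with earlier results of these data known. Signals on each array were to be given for members past the test with a log2 change of at least 1 against 0 h, and the other members shown array by array, the C6 spread, the motifs and the windows were chosen after their values were seen. Genes of the second list past the test at that size and up to 3 defining markers per marker list were to be named. Promoter windows are from RefSeq on GRCm38.p6, and 7 measured members had none. Histology, serum values and RT-PCR were not analysed here. Figures were drawn with matplotlib.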

Additional observations from a re-analysis of the deposited data

Results flagged for a closer look

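A difference between 2 treated time points means that the change from the shared 0 h group was not the same at both, and 10 members passed that test (limma, adjusted over all genes). Between 1 h and 3 h the log2 difference was -0.73 for C1qa, 0.45 for C2, -0.32 for C8g and -1.07 for C3ar1. Between 3 h and 6 h it was 0.39 for C1s1, 0.36 for C4bp, -0.50 for Masp1, 0.67 for Mbl1, 1.73 for Itgam and 1.08 for Itgb2.

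Single arrays decided 7 of these calls. The C1qa call was lost without 1 h replicate 1 (-0.64), 3 h replicate 2 (-0.67) or 3 h replicate 3 (-0.64), and that of C2 without 1 h replicate 1 (0.46), 1 h replicate 3 (0.37), 3 h replicate 1 (0.46) or 3 h replicate 2 (0.38). That of C8g was lost without 1 h replicate 1 (-0.28) or 3 h replicate 3 (-0.28). That of C1s1 was lost without 3 h replicate 3 (0.32), 6 h replicate 1 (0.36) or 6 h replicate 2 (0.34), and that of C4bp without 3 h replicate 2 (0.36), 3 h replicate 3 (0.32), 6 h replicate 2 (0.30) or 6 h replicate 3 (0.39). That of Masp1 was lost without 3 h replicate 1 (-0.46), 3 h replicate 2 (-0.44) or 6 h replicate 3 (-0.41), and that of Itgam without 3 h replicate 2 (1.69), 3 h replicate 3 (1.38) or 6 h replicate 2 (1.49). The calls of Mbl1, C3ar1 and Itgb2 held whichever array was left out. Scaling ended 6 of the 10 calls as well. With arrays set to the same median, C1s1 from 3 h to 6 h came to 0.0049 (adjusted p = 1), Mbl1 to 0.28 (adjusted p = 0.147), C4bp to -0.016 (adjusted p = 0.951), C1qa from 1 h to 3 h to -0.39 (adjusted p = 0.12) and C8g to 0.020 (adjusted p = 0.937). With quantile normalization the calls of C1qa (-0.42, adjusted p = 0.0826), C4bp (0.20, adjusted p = 0.0533), C8g (-0.16, adjusted p = 0.147) and C3ar1 (-0.69, adjusted p = 0.0517) were lost. Groups of 3 arrays are too small for a test of single outlying arrays, C6 included.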

How the results depend on the processing

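At 6 h the calls of C1s1, C2, C4bp, C8g, Cfb, Mbl1, Cd59a, C3ar1 and Itgb2 were kept under every alternative run other than the added 2-fold threshold, which C3ar1 and Itgb2 also met. With that threshold 1 member rose and 1 fell by 3 h, 2 rose and 1 fell by 6 h, 0 and 1 from 1 h to 3 h, and 2 and 0 from 3 h to 6 h. With arrays at the same median, 1 member rose and 0 fell by 1 h, 6 and 1 by 3 h, 7 and 7 by 6 h, 3 and 1 from 1 h to 3 h, and 2 and 9 from 3 h to 6 h, and with quantile normalization 1 was higher at 1 h, 1 lower at 3 h, 3 higher and 0 lower from 1 h to 3 h, and 4 lower from 3 h to 6 h. Without a floor (log2 of signal + 1), 1 was lower at 3 h and 3 higher from 3 h to 6 h. Among genes brighter than the median, 1 was higher at 1 h, 1 lower at 3 h, 2 higher from 1 h to 3 h and 2 lower from 3 h to 6 h. With an intensity trend, 1 was higher at 1 h and 2 from 1 h to 3 h. With only the groups compared, 1 was lower at 3 h, 0 higher from 1 h to 3 h, and 3 higher and 0 lower from 3 h to 6 h. With the mean of a gene's probe sets, 5 were lower from 1 h to 3 h.

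Leaving out 1 array at a time gave 0 to 1 members higher by 1 h, 2 to 3 higher and 1 to 3 lower by 3 h, 6 to 9 higher and 4 lower by 6 h, 0 to 1 higher and 1 to 5 lower from 1 h to 3 h, 2 to 6 higher and 0 to 1 lower from 3 h to 6 h, and 9 to 13 past the F test, with the 9 without 6 h replicate 3. Setting arrays to the same median turned the sign of 15 members from 3 h to 6 h and of 11 from 1 h to 3 h. Those called under either setting were C4bp (-0.016), Cfi (-0.30) and Clu (-0.37) in the later step and C8g (0.020) in the earlier one. The mean of probe sets turned Masp1 from 3 h to 6 h (0.075). The causes were not tested. Whether the replicate numbers pair the arrays was not settled. The correlation of residuals was -0.0047 to 0.043 over the 18 same-numbered pairs and -0.055 to 0.033 over 36 others. A replicate block, left out of the main fit, lowered the SE of C1qb at 6 h from 0.20 to 0.10. An effect shared by same-numbered arrays was not tested. With the replicate block, 2 members were higher and 5 lower from 1 h to 3 h, C1qb passed at 6 h (0.43, adjusted p = 0.0177), and no other call against 0 h changed. The dimmer probe sets of C1qb had negative changes at 6 h without the block. Dim signals, as of Itgam, Itgax and C5ar1, limit what could be detected.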
